A study of Taeniopygia guttata with 5 samples.

Results

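Inhibitory neurons of the brain release GABA or glycine, and 7 genes of this system were followed across the deposited read counts. They are *GAD2*, an enzyme of GABA synthesis, the parvalbumin genes *PVALB-1* and *PVALB-2*, *RELN*, the gene of the secreted protein reelin, the GABA receptor subunits *GABRB1-2* and *GABRR1*, and the glycine receptor subunit *GLRA2*. They were chosen by gene name, and they are 7 of the 4675 transcripts that appear in at least 1 of 4 deposited tables. The names are those of the tables, where a hyphen and a number tell apart entries that share a symbol.

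The study sequenced RNA of HVC, a song nucleus of the zebra finch (*Taeniopygia guttata*) forebrain, and of whole brain (WB), at 100 d in adulthood and at 45 d in song-learning juveniles. There were 5 libraries from male birds of a breeding colony, for which no treatment is described, and all birds were watched for an hour before collection and did not sing or hear song. HVC at 100 d was 1 library and HVC at 45 d was a pair of libraries (R92L1 and R92L2), each pooling RNA of 4 birds, and WB was 1 library at 100 d and 1 at 45 d, each pooling RNA of 2 birds. WB contains HVC, and HVC samples may hold some of the ventricular zone above it, according to the study's methods. It is not stated whether the 45 d HVC pair holds different birds. The p-values therefore reflect the spread of that pair alone, and this spread may be technical. HVC and WB libraries carry different run labels in the table headers, so tissue and run cannot be told apart.

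Each table lists 1800 transcripts, those with the smallest p-values in the authors' test of one comparison, and 1205 transcripts had reads given for all 5 libraries. The listed reads summed to between 495316 and 1014565 per library, which is not the sequencing depth. Reads were therefore divided by relative library sizes recovered from the tables, with HVC at 100 d set to 1, 0.905 and 1.09 for the 45 d HVC pair, 1.51 for WB at 100 d and 1.81 for WB at 45 d. These are called scaled reads below, and they compare libraries for 1 gene, not genes with each other. The genes used here as markers of adult HVC tissue were *CRHBP*, *CADPS2*, *ALDH1A2* and *NTS*. The study does not assign them to a cell type. All 4 were higher in HVC at both ages. Their summed scaled reads were 7537 in HVC at 100 d and 6576 and 7858 at 45 d, against 1376 in WB at 100 d and 1476 at 45 d. The study names them, and *RELN* too, among genes reported earlier as enriched in adult HVC, so this was no independent test. Its list, offered as support for its data, also holds entries spelled *GLAR2* and *PVBL*. These may stand for *GLRA2* and parvalbumin, so the parvalbumin results below may be no independent finding either. *RELN* was lower in HVC here, and *GLRA2* was below WB in every HVC library, as given below. Some of the earlier work, according to the study, compared HVC with the adjacent shelf, not with whole brain. The part of the reference tissue in these directions was not tested. In bulk tissue, fewer cells of a type and less RNA per cell cannot be told apart.

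GABA is made from glutamate by glutamic acid decarboxylases and opens chloride channels built from GABA receptor subunits, while glycine opens related channels built from glycine receptor subunits. In HVC, local GABAergic interneurons inhibit the projection neurons that drive song, and many fast-firing interneurons of birds and mammals contain the calcium-binding protein parvalbumin. Reelin is secreted by several kinds of neurons, among them interneurons of the mammalian cortex and granule cells of the cerebellum, and guides neuronal positioning and later acts at synapses.

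All 7 genes are annotated as protein coding, and their positions are those of the deposited tables, on taeGut1. *GAD2* (ENSTGUG00000001148) lies on the minus strand of chromosome 2 from 17942911 to 17980401. *PVALB-1* (ENSTGUG00000008734) is on the plus strand of chromosome 14 from 15035480 to 15038080. *PVALB-2* (ENSTGUG00000010713) is on the plus strand of chromosome 1A from 51421774 to 51430291, and *RELN* (ENSTGUG00000002836) is on the minus strand of the same chromosome from 12019634 to 12249614. The parvalbumin entries are therefore separate loci. *GABRB1-2* (ENSTGUG00000008295) is on the minus strand of chromosome 4 from 45401175 to 45511239, whereas *GABRB1-1* (ENSTGUG00000006269), an entry with the same symbol root, is on chromosome 4A from 18953103 to 19030777. *GABRR1* (ENSTGUG00000012419) is on the plus strand of chromosome 3 from 78083497 to 78110781, and *GLRA2* (ENSTGUG00000008149) is on the minus strand of chromosome 1 from 17321879 to 17448461. How the counting treated strand, or reads that match related genes, is not given in the sources used here, so reads of the parvalbumin pair and of the *GABRB1* pair may be split between entries.

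**Figure D1:**
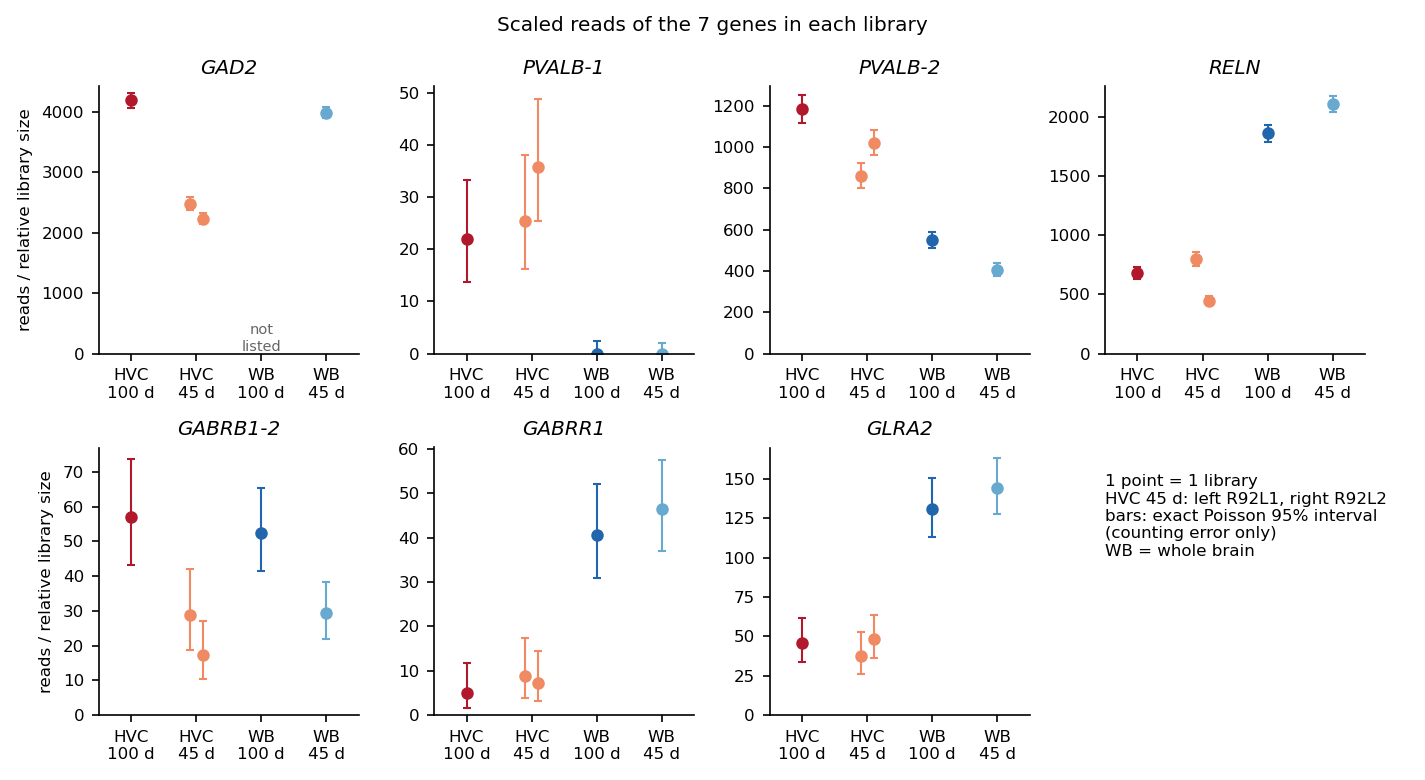
Scaled reads (vertical axis, reads divided by relative library size, linear and starting at 0) of the 7 genes in HVC at 100 d, the pair of HVC libraries at 45 d, WB at 100 d and WB at 45 d. Each point is 1 library and each bar its exact Poisson 95% interval, which covers counting error only; *PVALB-1* had 0 reads in both WB libraries, and *RELN*, *GABRR1* and *GLRA2* lie lower in all 3 HVC libraries than in either WB library.

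The first question was whether these genes differed between the song nucleus and the brain at large. The 2 parvalbumin genes were higher in HVC at both ages, and *RELN* and *GABRR1* were lower at both ages. *GLRA2* was lower at 45 d. Counted as calls of the quasi-likelihood test of edgeR at a Benjamini-Hochberg adjusted p under 0.1, 4 of the 6 genes tested at 100 d passed, 2 higher and 2 lower in HVC, and 5 of 7 passed at 45 d, 2 higher and 3 lower. The background was high, since the tables list transcripts for their differences: 24.9% of the 1361 transcripts tested at 100 d passed (10.9% higher and 14% lower in HVC), and 34.6% of 1920 at 45 d (13.4% higher and 21.2% lower). The 7 genes were known from earlier results when they were chosen, so these counts describe them and test nothing about them as a group.

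*PVALB-1* was detected in HVC and had no reads in WB. It had 22 reads in HVC at 100 d and 23 and 39 in the 45 d pair, against 0 reads in WB at 100 d and 0 at 45 d. With a floor of 3 counts for a WB library, it was at least 11.0-fold higher in HVC at 100 d (edgeR adjusted p = 0.0003) and at least 18.7-fold higher at 45 d (edgeR adjusted p = 0.000454). The floor allows for counting error only. The larger WB libraries were those without reads.

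*PVALB-2* was present in both tissues. Its scaled reads were 1183 in HVC at 100 d and 860 and 1019 in the 45 d pair, against 549 in WB at 100 d and 406 at 45 d. Every HVC library was above both WB libraries, and the 45 d pair differed by 1.19-fold. The log2 fold change of HVC over WB was 1.11 at 100 d (standard error, SE, 0.34, edgeR adjusted p = 0.052) and 1.21 at 45 d (SE 0.31, edgeR adjusted p = 0.0271).

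Parvalbumin also marks Purkinje cells of the cerebellum, which WB holds and HVC lacks. The other cerebellar markers with reads given were all below WB: at 100 d, 3 of 4 were called lower, and at 45 d, 4 of 5. Over all transcripts tested, 14% were called lower at 100 d and 21.2% at 45 d. The call of *CALB1* at 100 d was lost under every other scaling described below. These markers include *FAT2* and *ZIC1*, known from mammalian granule cells, and *CALB1*, known from Purkinje cells. Their summed scaled reads were 155 in HVC against 903 in WB at 100 d, and 207 and 274 in the HVC pair against 1232 in WB at 45 d. *GABRA6*, a GABA receptor subunit of cerebellar granule cells, had 1 read in HVC at 100 d and 0 and 0 in the 45 d pair, against 21 in WB at 100 d and 32 at 45 d.

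Markers of the choroid plexus were below WB too. Choroid plexus markers with reads given (1 of 4 at 100 d and 2 of 4 at 45 d) summed to 11 in HVC against 824 in WB at 100 d, and to 43.1 and 33.0 in the HVC pair against 827 in WB at 45 d. The part of the choroid plexus in the differences of the members was not tested.

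*RELN* went the other way. Its scaled reads were 680 in HVC at 100 d and 795 and 446 in the 45 d pair, against 1859 in WB at 100 d and 2103 at 45 d. The HVC libraries were all below the WB libraries, although the 45 d pair differed by 1.78-fold, the widest gap of any of the 7 genes. On the log2 scale HVC over WB was -1.45 at 100 d (SE 0.34, edgeR adjusted p = 0.00305) and -1.76 at 45 d (SE 0.32, edgeR adjusted p = 0.00146). Without R92L1 or R92L2 the 45 d value ranged from -2.24 to -1.40. Cerebellar granule cells are a known source of reelin, and the cerebellar markers above moved with it; their part in the *RELN* difference was not tested.

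Other genes of the reelin pathway were sparse in the tables, which held 4 of the 10 genes on the list, *RELN* included. *LRP8*, a reelin receptor, was lower in HVC at 45 d, with 157 and 165 reads in the HVC pair against 666 in WB and a log2 fold change of -1.18 (SE 0.30, edgeR adjusted p = 0.0255). Its call was lost under DESeq2 and under sizes from the trimmed mean method, relative log expression or read sums, which are described below. WB reads of *LRP8* at 100 d were not listed. At 100 d *RELN* was the 1 list member tested.

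*GABRR1* encodes a rho subunit, known in mammals from receptors of the retina. It had few reads in HVC, 5 in HVC at 100 d and 8 and 8 in the 45 d pair, against 61 in WB at 100 d and 84 at 45 d. Scaled, these were 5 in HVC at 100 d and 8.84 and 7.33 in the 45 d pair, against 40.5 in WB at 100 d and 46.5 at 45 d. HVC over WB came to -2.99 on the log2 scale at 100 d (SE 0.90, edgeR adjusted p = 0.0404) and -2.52 at 45 d (SE 0.58, edgeR adjusted p = 0.0121). The libraries of the tissues did not overlap, and the interval of each HVC library reached no higher than 17.4 scaled reads.

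*GLRA2* encodes a ligand-binding alpha subunit of the glycine receptor, the one that prevails early in development in rodents. Scaled reads were 46.0 in HVC at 100 d and 37.6 and 48.6 in the 45 d pair, against 131 in WB at 100 d and 144 at 45 d. HVC was below WB in all libraries at both ages. The log2 fold change was -1.74 at 45 d (SE 0.37, edgeR adjusted p = 0.0061). The 100 d value was -1.51 (SE 0.51, edgeR adjusted p = 0.104), which missed the threshold. Whether the tissue difference itself changed with age is given by the test of age by tissue below.

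*GAD2* and *GABRB1-2* were not called between the tissues. *GAD2* had 2479 and 2231 scaled reads in the 45 d HVC pair against 3984 in WB at 45 d, a log2 fold change of -0.76 (SE 0.30, unadjusted p = 0.019, edgeR adjusted p = 0.202). Both HVC libraries were below WB, but the value lay only 0.06 below the median of all transcripts tested, which was -0.70. Its WB reads at 100 d were not listed, so the tissues were not compared at that age. *GABRB1-2*, a beta subunit of the GABA-A receptor, had 57.0 scaled reads in HVC at 100 d against 52.5 in WB, and 28.7 and 17.4 in the HVC pair at 45 d against 29.3 in WB. These overlapped in their counting intervals, with log2 fold changes of 0.12 at 100 d (SE 0.59) and -0.36 at 45 d (SE 0.55), and the edgeR adjusted p was 1 for both.

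**Figure D2:**
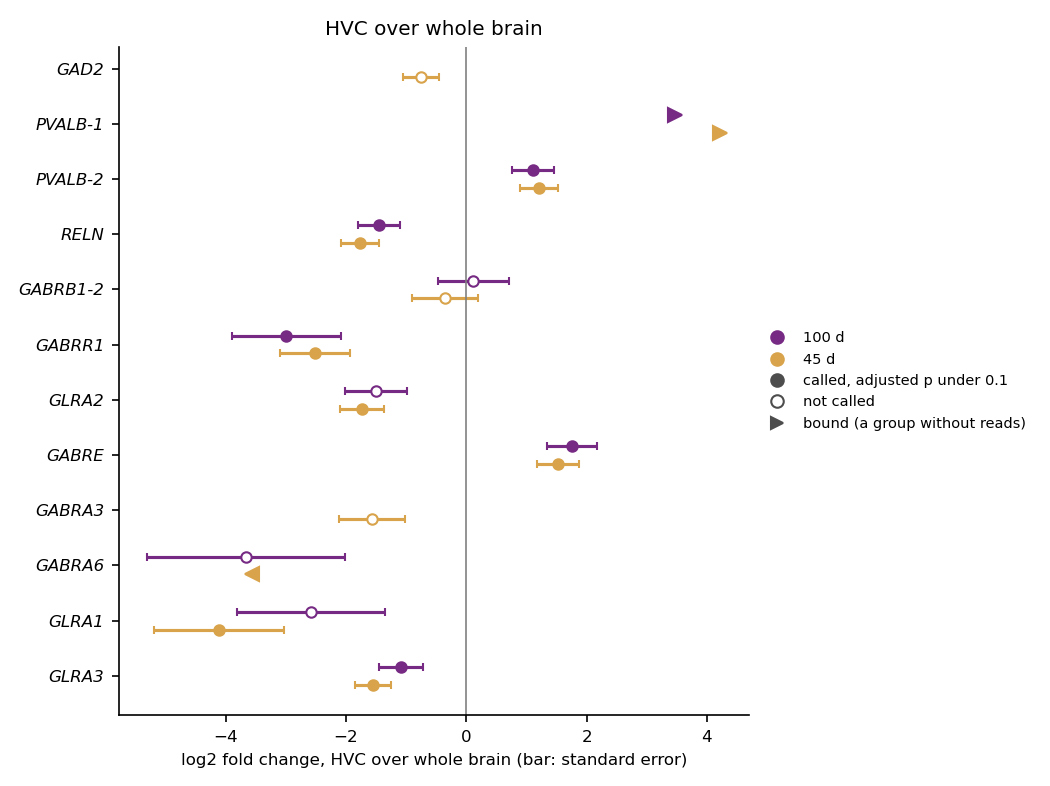
Log2 fold change of HVC over WB (horizontal axis) at 100 d and 45 d for the 7 genes and for 5 other GABA or glycine receptor subunits, with bars for the standard error (SE). Filled points passed an edgeR adjusted p under 0.1, open points did not, and triangles are lower bounds on the size of the fold where a group had no reads; *PVALB-1*, *PVALB-2* and *GABRE* lie on the right at both ages and *RELN*, *GABRR1* and *GLRA3* on the left.

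Across all GABA and glycine receptor subunits of the tables, the 3 members included, more were called lower than higher in HVC with the recovered sizes. At 100 d, 8 subunits were tested, of which 1 was called higher, 2 lower and 5 neither, and at 45 d, 9 were tested, with 1 higher, 5 lower and 3 neither. Their median log2 fold change was -1.30 at 100 d and -1.57 at 45 d, beside -0.42 and -0.70 for all transcripts tested at those ages. These calls depended on the library sizes, which were also set by the trimmed mean method of edgeR (TMM), by the median ratios of DESeq2 (relative log expression), by the sums of the listed reads, and by median ratios over transcripts outside the table compared. At 100 d the calls became 1 higher and 0 lower under TMM, relative log expression and sums of the listed reads, and 0 and 0 with sizes from transcripts outside the table. At 45 d they became 1 higher and 4 lower under TMM, 1 and 1 under relative log expression, 1 and 0 under sums of the listed reads, and 1 and 6 with sizes from outside the table. Of the 6 subunits at 45 d that are not among the 7 genes, 1 was called higher and 3 lower.

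The subunit that was higher was *GABRE*, the epsilon subunit of the GABA-A receptor. It had 225 scaled reads in HVC at 100 d and 184 and 164 in the 45 d pair, against 66.4 in WB at 100 d and 60.3 at 45 d. Its log2 fold change was 1.76 at 100 d (SE 0.42, edgeR adjusted p = 0.00355) and 1.52 at 45 d (SE 0.36, edgeR adjusted p = 0.0134). Every HVC library lay above both WB libraries, as for the parvalbumin genes. The *GABRE* calls were lost under DESeq2 at both ages, and at 100 d also with sizes from outside the table.

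*GLRA3*, another alpha subunit of the glycine receptor, was lower in HVC at both ages. It had 284 scaled reads in HVC at 100 d and 234 and 164 in the 45 d pair, against 603 in WB at 100 d and 585 at 45 d. Its log2 fold change was -1.09 at 100 d (SE 0.36, edgeR adjusted p = 0.0905) and -1.56 at 45 d (SE 0.30, edgeR adjusted p = 0.00264). *GLRA1*, the alpha subunit of adult brainstem and spinal cord in mammals, had 3 reads in HVC at 100 d and 0 and 2 in the 45 d pair, against 28 in WB at 100 d and 34 at 45 d. The ratio of scaled reads was 0.161 at 100 d (exact 95% counting interval 0.0314 to 0.522) and 0.0533 at 45 d (0.0062 to 0.208). All 3 glycine receptor subunits compared between the tissues were thus below WB in each HVC library, and with the recovered sizes 1 was called at 100 d and 3 at 45 d. Over all transcripts tested, 14% were called lower in HVC at 100 d and 21.2% at 45 d. The share of all transcripts below WB in each HVC library was not counted. At 100 d the 1 call was lost under the 4 other scalings, DESeq2 and limma-voom, and at 45 d 0 were called under relative log expression and sums of the listed reads, 1 under DESeq2 and 2 under TMM and limma-voom.

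*GABRA6* was at least 11.8-fold lower in HVC at 45 d (edgeR adjusted p = 0.00925), and at 100 d the ratio was 0.0717 (exact 95% counting interval 0.00173 to 0.446). The 45 d call of *GABRA6* was lost under DESeq2 and sums of the listed reads. *GABRA3* was compared at 45 d alone, at -1.57 (SE 0.55, edgeR adjusted p = 0.13).

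Of the remaining genes of inhibitory transmission few were in the tables. The list of GABA synthesis and transport had 4 of 10 genes in the tables, of which *GAD2* alone was tested between the tissues, at 45 d. Of the proteins of the inhibitory postsynapse and of chloride balance, 4 of 11 were in the tables, 2 were tested at 45 d with 1 called lower, and 1 was tested at 100 d and not called. The gene called lower was *GABARAPL2*, of a family that binds GABA-A receptors, at -0.93 (SE 0.29, edgeR adjusted p = 0.0766). Its call was lost under TMM, relative log expression, sums of the listed reads, DESeq2 and limma-voom. Over all 6 gene lists examined, 18 transcripts were tested at 100 d, with 6 called higher in HVC and 4 lower, and 28 at 45 d, with 4 higher and 12 lower. With the recovered sizes, the share of all transcripts called was 24.9% for the adult comparison and 34.6% for the juvenile one. Under other sizes the balance of the list calls turned round for the juvenile comparison alone, with relative log expression and sums of the listed reads. In the adult comparison no transcript of the lists stayed called lower under any of the 4 other scalings. At 100 d there were 6 higher and 0 lower under relative log expression and sums of the listed reads, 3 and 0 under TMM, and 0 and 0 with sizes from outside the table, and at 45 d there were 6 and 3 under relative log expression, 3 and 1 under sums, 3 and 7 under TMM and 5 and 13 with sizes from outside the table. Without the 7 genes themselves the counts with the recovered sizes were 4 higher and 2 lower of 12 at 100 d, and 2 higher and 9 lower of 21 at 45 d.

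The parvalbumin genes were also seen beside other interneuron markers. The list of 34 symbols matched 15 transcripts in the tables, *PVALB-1* and *PVALB-2* both under 1 symbol. At 100 d, 8 were tested, with 5 called higher in HVC and 1 lower. At 45 d, 14 were tested, with 3 called higher and 4 lower. The parvalbumin pair was among those higher at both ages. The background share called in either direction was 24.9% for the adult comparison and 34.6% for the juvenile one. The adult calls depended on the settings. DESeq2 and sizes from outside the table gave 0 calls, and TMM kept *PVALB-1* and *SOX6* alone. Relative log expression, sums of the listed reads and limma-voom kept all 5 genes that were higher. The gene called lower, *CALB1*, lost its adult call under every other scaling, DESeq2 and limma-voom. *SOX6*, a transcription factor of parvalbumin and somatostatin interneurons in mice, was higher at 100 d, 1.49 (SE 0.37, edgeR adjusted p = 0.00614), and was 0.85 at 45 d (SE 0.32, edgeR adjusted p = 0.162). *KCNC1*, a potassium channel of fast-firing neurons, was higher at 100 d, 1.27 (SE 0.36, edgeR adjusted p = 0.0238), and was 0.94 at 45 d (SE 0.31, edgeR adjusted p = 0.103). *TAC1*, the gene of substance P, was higher at 100 d, 2.56 (SE 0.72, edgeR adjusted p = 0.0224), with 67 scaled reads in HVC against 11.3 in WB, but at 45 d it had 11.1 and 10.1 in the HVC pair against 30.4 in WB, -1.52 (SE 0.60, edgeR adjusted p = 0.192). The third gene called higher at 45 d was the neuropeptide gene *CCK*, 2.31 (SE 0.71, edgeR adjusted p = 0.0724). Its call was lost under TMM, sums of the listed reads, DESeq2 and limma-voom.

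The calcium-binding protein genes *CALB1* and *CALB2*, known from other interneuron classes, lay on the opposite side from parvalbumin. *CALB1* is also among the cerebellar markers above, and the part of the cerebellum in its difference was not tested. *CALB1*, calbindin, had 100 scaled reads in HVC at 100 d and 112 and 148 in the 45 d pair, against 275 in WB at 100 d and 325 at 45 d, and was lower at 100 d, -1.46 (SE 0.42, edgeR adjusted p = 0.0251), and at 45 d, -1.32 (SE 0.31, edgeR adjusted p = 0.0155). *CALB2*, calretinin, was lower at 45 d, -2.47 (SE 0.52, edgeR adjusted p = 0.00582), and was -2.39 at 100 d (SE 0.85, edgeR adjusted p = 0.137). *LHX8*, a transcription factor of ventral forebrain neurons in mice, was lower at 45 d, -4.16 (SE 0.56, edgeR adjusted p = 5.95e-05), with 3 and 7 reads in the HVC pair against 163 in WB. At 100 d it had 47 reads in HVC against 165 in WB, -1.22 (SE 0.57, edgeR adjusted p = 0.468). The transcription factor gene *ETV1* was the other marker called lower at 45 d, -1.11 (SE 0.30, edgeR adjusted p = 0.0399). At 45 d the *CALB1* call was lost under TMM, relative log expression, sums of the listed reads and DESeq2. *CALB2* lost its 45 d call under sums of the listed reads and DESeq2. *ETV1* lost its call under TMM, relative log expression, sums of the listed reads, DESeq2 and limma-voom, and *LHX8* kept its 45 d call under all of these.

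How far these calls hold depends on the library sizes. The recovered sizes put the median log2 fold change of all transcripts tested at -0.42 at 100 d and -0.70 at 45 d. Sizes estimated from the listed transcripts themselves moved that median to between -0.08 and 0.16 at 100 d and between -0.34 and -0.07 at 45 d. How the calls split between the directions changed with it. Calls higher in HVC made up 43.7% at 100 d and 38.8% at 45 d with the recovered sizes, between 78.6% and 88.4% at 100 d and between 66.3% and 84.9% at 45 d with TMM, relative log expression or read sums, and 88.9% at 100 d and 37.5% at 45 d with sizes from transcripts outside each table.

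The directions of the called members did not change under any of these sizes. *PVALB-2* was called under 3 of the 5 scalings at 100 d and 5 of 5 at 45 d, and *PVALB-1* under 4 and 5. *RELN* was called under 1 of 5 at 100 d and 3 of 5 at 45 d, and *GABRR1* likewise under 1 and 3. *GLRA2* was called under 0 of 5 at 100 d and 3 of 5 at 45 d. With the recovered sizes, DESeq2 called 0 of the members at 100 d, and at 45 d *RELN* (DESeq2 adjusted p = 0.0126) and *PVALB-1* (0.0444) alone. Relative to the median of all transcripts tested, *RELN* stayed between -1.09 and -1.03 at 100 d and between -1.16 and -1.07 at 45 d, and *PVALB-2* between 1.47 and 1.53 at 100 d and between 1.81 and 1.91 at 45 d. Relative to that median *GABRR1* was -2.63 to -2.57 at 100 d and -1.92 to -1.82 at 45 d, and *GLRA2* was -1.14 to -1.09 and -1.14 to -1.04.

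**Figure D3:**
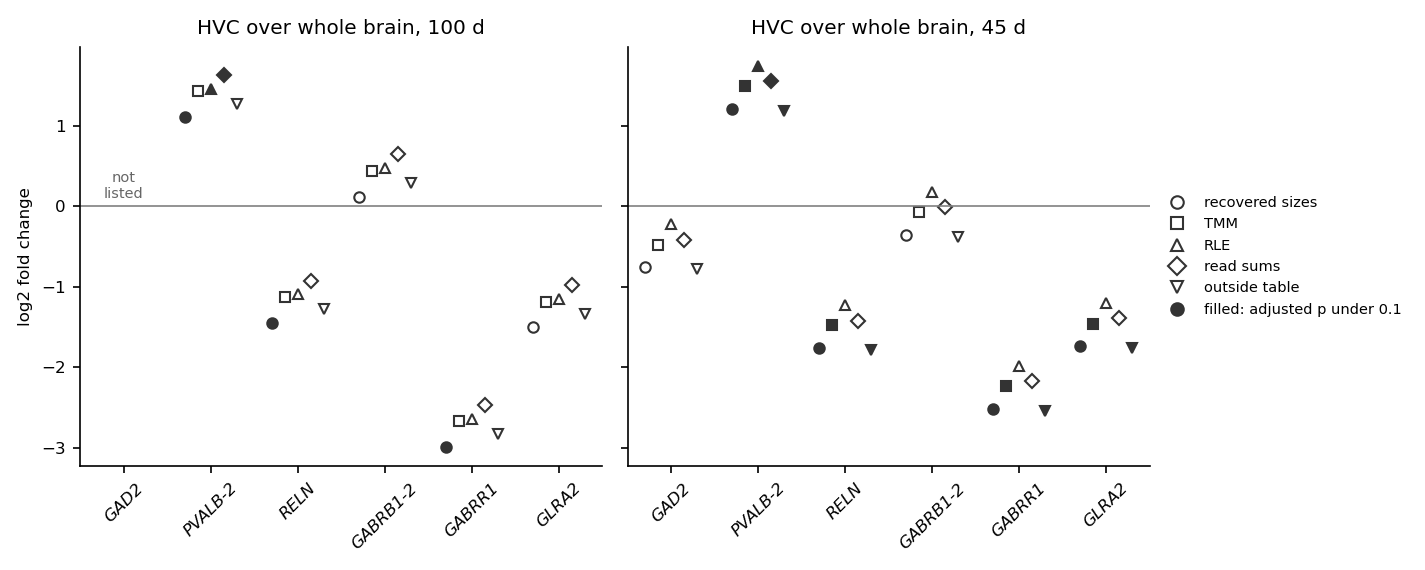
Log2 fold change of HVC over WB (vertical axis) at 100 d (left) and 45 d (right) for 6 of the genes under 5 ways to set library sizes, the recovered sizes, TMM, relative log expression (RLE), sums of the listed reads, and median ratios over transcripts outside the table. Filled symbols passed an edgeR adjusted p under 0.1; *PVALB-2* stays above 0 and *RELN*, *GABRR1* and *GLRA2* below 0 under all 5, whereas *GABRB1-2* changes sign at 45 d.

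The second question was whether the genes changed between 45 d and 100 d. None of the 7 genes passed the test within either tissue. In HVC, 0 of 6 tested members were called, beside 0% of 2150 transcripts, and 2 of the 6 had an unadjusted p under 0.05 in edgeR, as did 443 of all transcripts tested. Those 2, *GAD2* and *GABRB1-2*, are the only members the authors listed for age in HVC, so their small p-values partly restate that listing. DESeq2 called 2 of the 2150 transcripts and limma-voom 0, and neither called any of the 6. In WB, 0 of 6 were called (*PVALB-1*, without WB reads, among the 6), beside 0.152% of 1318 transcripts, 0 had an unadjusted p under 0.05, and DESeq2 and limma-voom called 0 transcripts.

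*GAD2* was one of the 2 genes with a small unadjusted p in HVC. It had 4186 scaled reads in HVC at 100 d, against 2479 and 2231 in the 45 d pair. The 100 d library was above both, by 1.78-fold in the fit, and the 45 d pair differed by 1.11-fold. The log2 fold change of 100 d over 45 d was 0.83 (SE 0.23, unadjusted p = 0.00634, edgeR adjusted p = 1). It was 0.76 and 0.91 with either 45 d library left out, values with no test since no group then has 2 libraries.

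Reads of *GAD1-1*, the other glutamic acid decarboxylase gene, lay on the same side. It had 1249 scaled reads in HVC at 100 d, against 1005 and 801 at 45 d, a log2 fold change of 0.47 (SE 0.25, unadjusted p = 0.0978, edgeR adjusted p = 1). *SLC6A11*, a GABA transporter of astrocytes in mammals, had 177 scaled reads at 100 d against 293 and 245 at 45 d, -0.60 (SE 0.29, unadjusted p = 0.0715, edgeR adjusted p = 1). Neither gene was listed with WB reads. Both entered through the authors' listing for age in HVC, which favours differences. Of the 4 genes of GABA synthesis and transport tested between the ages in HVC, 2 had log2 fold changes above 0 and 2 below, and 0 were called.

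Markers of astrocytes were below their 45 d level in the same library. Of 5 astrocyte markers, 3 had reads given for HVC (*SLC1A2*, *SLC1A3* and *AQP4*), and all 3 had log2 fold changes below 0, 2 with an unadjusted p under 0.05 in edgeR and 0 called. Their summed scaled reads were 9949 in HVC at 100 d against 14574 and 21130 in the 45 d pair. *SLC1A2* and *SLC1A3* had reads given for HVC alone, so they entered through the authors' listing for age in HVC. The markers of adult HVC tissue named above summed to 7537 at 100 d against 6576 and 7858. *NEUROD6*, a marker of excitatory neurons, had 238 scaled reads at 100 d against 535 and 487, -1.10 (SE 0.27, unadjusted p = 0.00318, edgeR adjusted p = 1).

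Some markers of striatal neurons and of interneurons were above their 45 d level in that library. Of the 11 interneuron markers tested between the ages in HVC, 8 had log2 fold changes above 0, 3 below, and 0 were called. The 3 below were *CALB2* (-0.71), *PVALB-1* (-0.48) and *CALB1* (-0.38). The striatal markers with reads given at both ages in HVC (*DRD2* and *ADORA2A*, 2 of 6) summed to 27 scaled reads at 100 d against 6.63 and 7.33 in the 45 d pair. Both entered through the authors' listing for age in HVC. *LHX8* had 47 scaled reads at 100 d against 3.32 and 6.42, 3.21 (SE 0.58, unadjusted p = 0.000467, edgeR adjusted p = 0.372), and *TAC1* had 67 against 11.1 and 10.1, 2.65 (SE 0.47, unadjusted p = 0.000415, edgeR adjusted p = 0.372). In 1 model of all 5 libraries *LHX8* and *TAC1* were called for age in HVC, and 0 of the members were. The part of these cell types in the *GAD2* difference was not tested.

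*GABRB1-2* was the other such gene. It had 57 reads in HVC at 100 d, and 26 and 19 in the 45 d pair, or 57.0 scaled reads against 28.7 and 17.4. Between the ages the log2 fold change was 1.31 (SE 0.48, unadjusted p = 0.0249, edgeR adjusted p = 1), and 0.98 and 1.70 with either 45 d library left out. The 100 d library was above both, and its 95% counting interval, from 43.2 to 73.8 scaled reads, did not reach that of either 45 d library.

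In WB, *GABRB1-2* had 52.5 scaled reads at 100 d against 29.3 at 45 d, 0.84 (SE 0.62, edgeR adjusted p = 1). *GABRB1-1* had 56.0 scaled reads in HVC at 100 d against 21.0 and 32.1 at 45 d, 1.06 (SE 0.46, unadjusted p = 0.0501, edgeR adjusted p = 1). The 6 receptor subunits tested between the ages in HVC all had log2 fold changes above 0, and 0 of them were called. Their median was 0.44, beside 0.02 for all transcripts tested. *GABRB1-1* and *GABRB1-2* entered through the authors' listing for age in HVC, which favours differences, so the median was partly set by that listing. Subunits with too few reads did not enter this test. Among these *GABRR1* went the other way, with a ratio of scaled reads of 0.624 and a counting interval from 0.179 to 1.78. *GLRA1* (3 reads at 100 d against 0 and 2) and *GABRA6* (1 against 0 and 0) lay above their 45 d level. The share of all transcripts above 0 was not counted.

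The study's primer list holds pairs for these 2 genes, and they are shown because *GAD2* and *GABRB1-2* carried the age differences with a small unadjusted p. They are printed from 5′ to 3′ in lower case with no part marked.
*GAD2* forward: cagccactcaccaagaca
*GAD2* reverse: actacaaatacattcgcacag
*GABRB1-2* forward: attcaaagcaaggagcact
*GABRB1-2* reverse: caccaaaccacaatatcca

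The parvalbumin genes showed no called age difference. *PVALB-2* had 1183 scaled reads in HVC at 100 d against 860 and 1019 at 45 d, 0.33 (SE 0.24, edgeR adjusted p = 1), and 549 in WB at 100 d against 406 at 45 d, 0.43 (SE 0.33, edgeR adjusted p = 1). *PVALB-1* had 22.0 scaled reads in HVC at 100 d against 25.4 and 35.7 at 45 d, -0.48 (SE 0.52, edgeR adjusted p = 1), and the counting intervals of the 3 libraries overlapped. In WB it had no reads at either age.

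*RELN* had 680 scaled reads in HVC at 100 d, between the 795 and 446 of the 45 d pair, a log2 fold change of 0.13 (SE 0.34, edgeR adjusted p = 1). With either 45 d library left out its value was -0.23 or 0.61, so the choice of library set the direction. In WB it was -0.18 (SE 0.36, edgeR adjusted p = 1). *GLRA2* at 100 d lay between the 45 d pair as well, at 0.09 (SE 0.44, edgeR adjusted p = 1), and was -0.14 in WB (SE 0.42, edgeR adjusted p = 1).

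*GABRR1* had too few reads in HVC to enter the test of ages. Its 5 reads at 100 d against 16 in the 45 d pair gave a ratio of scaled reads of 0.624, with an exact 95% counting interval from 0.179 to 1.78. In WB its log2 fold change was -0.20 (SE 0.62, edgeR adjusted p = 1). A difference with age was not detectable at this depth.

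**Figure D4:**
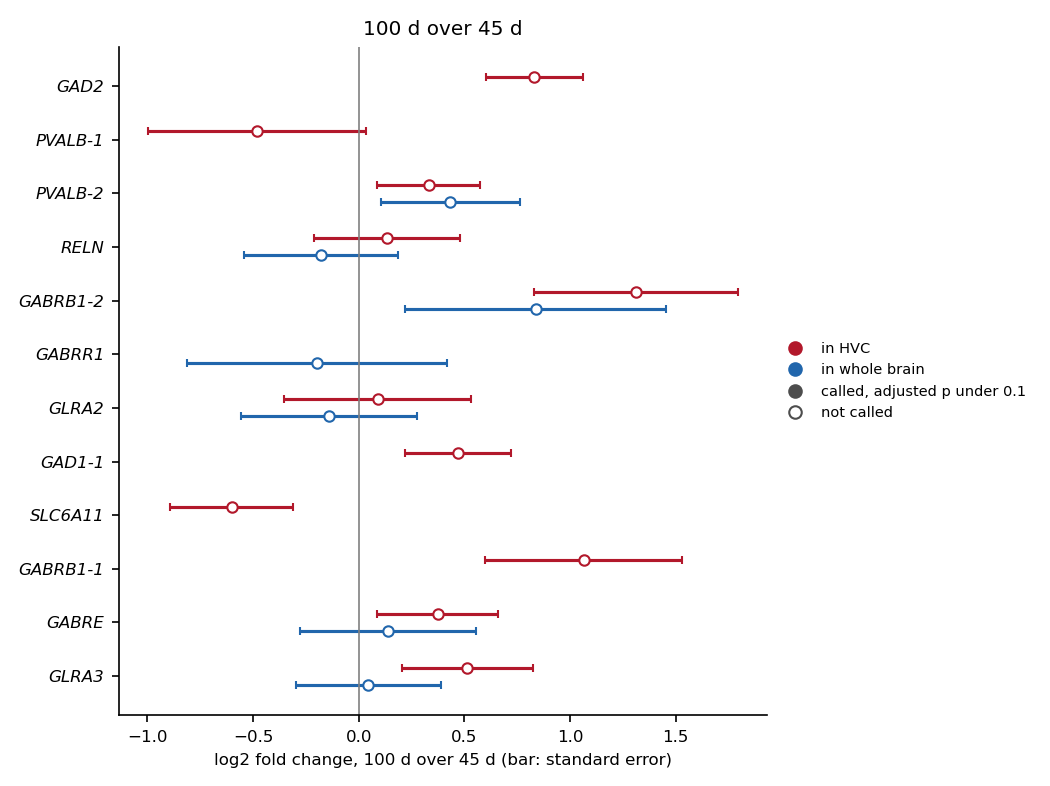
Log2 fold change of 100 d over 45 d (horizontal axis) in HVC and in WB for the 7 genes and 5 other genes of GABA and glycine signalling, with bars for the standard error (SE). All points are open because none passed an edgeR adjusted p under 0.1; *GABRB1-2* (1.31) and *GAD2* (0.83) lie farthest to the right among the 7 genes in HVC.

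The third question was whether the age difference in HVC departed from that in WB. The test over all 5 libraries called 0 of 6 members, beside 0% of 1176 transcripts. *PVALB-1*, with 0 reads in both WB libraries, could not have passed, which leaves 5 genes. None of these had an unadjusted p under 0.05, as 93 of all transcripts tested did, and DESeq2 and limma-voom also called 0 transcripts. The age difference in HVC minus that in WB was 0.47 on the log2 scale for *GABRB1-2* (SE 0.80), 0.31 for *RELN* (SE 0.45) and 0.23 for *GLRA2* (SE 0.60). It was -0.10 for *PVALB-2* (SE 0.43) and -0.48 for *GABRR1* (SE 1.08). *GAD2* had no WB reads at 100 d and did not enter.

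The order of the 4 groups by scaled reads differed among the members. *PVALB-2* ran from HVC at 100 d (1183) and 45 d (mean 947) to WB at 100 d (549) and 45 d (406), and neither neighbouring pair of ages within a tissue differed by the test. *RELN* and *GLRA2* ran from WB at 45 d and 100 d to HVC at 100 d and 45 d, and of the neighbouring steps only that of *RELN* between the tissues at 100 d passed its test. *GABRR1* had the same order between tissues, with WB at 45 d first and HVC at 100 d (5) last. *GABRB1-2* was ordered by age instead, with HVC at 100 d (57.0) and WB at 100 d (52.5) above WB at 45 d (29.3) and HVC at 45 d (mean 22.5). No step in that order passed a test. *GABRB1-2* was listed by the authors for both age comparisons and neither tissue comparison. *RELN*, *GLRA2*, *GABRR1* and *PVALB-1* were listed for both tissue comparisons and neither age comparison. Listing by small p-values favours such orders, so they describe these genes and test nothing.

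Genes with the most similar pattern over the 5 libraries were named among 675 transcripts with a mean of at least 50 reads, by the root mean squared difference of centred log2 scaled reads. With so few libraries, tissue dominates this measure. *GLRA2* was closest to *OLFM3* (0.0458) and *TSPAN7* (0.0997), and *RELN* to *VEGFA* (0.0795) and *LDB1* (0.123), which share the higher R92L1 level of *RELN*. *PVALB-2* was closest to *FAM13A1* (0.096) and *C16orf68* (0.107), and *PVALB-1*, far from any, to *FGL2* (0.601) and *THBS4* (1.05). *GABRR1* was closest to *BAG3* (0.206) and *PTPN3-1* (0.217), and *GABRB1-2* to *TSN* (0.152) and *PHF15* (0.235).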

How the data were processed

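RNA was sequenced by the authors (NuGEN Ovation RNAseq V1, reads of 79 nt), mapped to taeGut1 with ELAND2 and counted per Ensembl transcript; the edgeR version is not given in the sources used here. The deposited tables give raw read counts, which are whole numbers, and the authors' log2 fold changes and p-values, the p-values also in adjusted form (q-values). These columns of the authors' comparisons were used only to recover relative library sizes (the 4 tables agreed to within 0.291%) and the number of transcripts tested, and are not printed. Which 45 d HVC library is the first replicate is not stated.

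Counts were joined by transcript and tested in R 4.3.3 by the quasi-likelihood functions of edgeR 4.0.16 after filterByExpr, with 1 mean per group, over all transcripts with reads in the libraries compared and in the 45 d HVC pair, the only repeated group, which leaves 1 residual degree of freedom. For the tissues at 100 d edgeR estimated infinite prior degrees of freedom and took the spread from the trend over transcripts alone. Benjamini-Hochberg adjustment counted the 11507 (tissues, 45 d), 10859 (tissues, 100 d, and age by tissue), 11258 (ages in HVC) or 11101 (ages in WB) transcripts the authors tested. For a group with 0 reads a floor of 3 counts over the group stood in, and low counts got an exact 95% interval for counting error only. The test was tried on simulated data. Alternatives were DESeq2 1.42.0, limma 3.58.1 with voom, 4 other scalings, no filter, a threshold of 0.05, 1 model of all 5 libraries, and each 45 d HVC library left out. All 7 members are named with their reads; of 6 gene lists, called transcripts (up to 6 a comparison) and up to 2 others with the most reads, and any receptor subunit. The members and lists were chosen with earlier results of these data known. Of the 7 symbols, 4 are in RefSeq (bTaeGut7.mat) as written and 7 without the number; its coordinates were not used.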

Additional observations from a re-analysis of the deposited data

How the results depend on the processing

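All calls take their spread from 1 pair of libraries, since the remaining groups have 1 library each. Of 272 member fold changes recomputed under the alternatives, 239 kept their direction and side of the threshold or moved by less than the spread. A further 25 kept the direction but lost the call, and 1 gained it. With a 45 d HVC library left out, 5 moved further or changed sign, and 2 changed sign under another scaling. At 45 d, the 5 members called between the tissues became 2 under DESeq2, 2 under relative log expression and 2 under sums of the listed reads, and at 100 d the 4 became 0 under DESeq2, 0 with sizes from transcripts outside the table, 1 under TMM, 2 under relative log expression and 2 under sums of the listed reads. The signs that changed under another scaling were uncalled, *GABRB1-2* at 45 d (0.18 under relative log expression) and age by tissue for *PVALB-2* (0.15 under sums of the listed reads). Signs also changed with a 45 d HVC library left out, again for uncalled values. These were age in HVC for *RELN* (to -0.23) and *GLRA2* (to -0.08), and age by tissue for *RELN* (to -0.05) and *PVALB-2* (to 0.03). The counts of members called for age and for age by tissue were 0 under every alternative run. Over all transcripts, calls between the tissues numbered 665 at 45 d, against 122 under DESeq2, 182 under read sums, 312 under TMM, 327 under limma-voom and 438 under relative log expression. They were 823 with sizes from outside the table and 883 without a filter. At 100 d they numbered 339, against 36 under DESeq2, 199 under read sums, 70 under TMM, 203 under limma-voom and 148 under relative log expression. They were 9 with sizes from outside the table and 344 without a filter. The cause was not tested. Sizes from outside the table could not be had for age by tissue, and leaving out a 45 d HVC library gives no count, since no group then has 2 libraries. No paired analysis was possible because the columns carry no replicate numbers and only 1 group has more than 1 library.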
